A study of Mus musculus with 20 samples.

Results

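Kruppel-like factors are transcription factors with a block of C-terminal zinc fingers that bind GC-rich and CACCC sequences. The genes described here are the 9 members *Klf2*, *Klf3*, *Klf4*, *Klf6*, *Klf7*, *Klf10*, *Klf11*, *Klf12* and *Klf13*, found by symbol among the 39017 genes of the deposited table, and their relative *Klf9* was left out of the count. RNA was taken from bone marrow of mice transplanted with T lineage acute lymphoblastic leukemias (T-ALLs) that arose after insertional mutagenesis (IM) with the retrovirus MOL4070LTR in C57Bl/6 x 129Sv/Jae F1 mice. Cells of the primary leukemias were passed through irradiated wild-type F1 recipients, so each leukemia is a single primary tumour in host marrow that can still hold normal cells. The labels do not give a genotype, an age or a treatment for each leukemia, and no comparison by genotype was made. The groups are the leukemias 20M, 2M, 5C, 73A, 73M, 78A, 8633, JW14 and JW81, with 2 libraries each, and 4638. The study describes RNA sequencing of 9 leukemias and names the first 9 in its text or figures but not 4638, which is therefore given by its values. A figure of its mutation data lists a name with the same digits in another order, and whether that is the same leukemia is not known. In each pair the column name of 1 library carries the letters VEH and that of the other DEX, and neither the labels nor the study's text explain these letters.

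Members of the family differ mainly in the part outside the zinc fingers. KLF2, KLF4, KLF6 and KLF7 are best known as activators that recruit acetyltransferases, KLF3 and KLF12 bind the corepressor CtBP, and KLF10, KLF11 and KLF13 bind the SIN3 corepressor. In T cells KLF2 is known for keeping resting cells quiescent and for their exit into blood through *S1pr1*, KLF4 for restraining division, KLF10 for its induction by TGF-beta, and KLF13 for driving the chemokine gene *Ccl5*.

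The 18 libraries of the 9 leukemias held 8226528 to 201222288 counts, with a median of 24451898. Levels are given as FPKM, the count divided by the merged exon length and the library total, so that genes can be compared with each other. Nuclear ribosomal RNA genes exceeded 1 count per M counts in 5 libraries, namely those of JW81, JW14, 73M and 20M named DEX and that of 5C named VEH. The other 4 leukemias had no such library, and the *Klf13* and *Klf3* changes are given for both sets of leukemias. All 12 genes of the T lineage list were detected in every library, with summed levels of 525 to 1315 FPKM in the VEH libraries and 548 to 1183 FPKM in the DEX libraries. Nothing in the labels says whether the 2 libraries of a leukemia came from separate mice, so p-values measure the spread between these libraries, and in such bulk marrow fewer cells of a type and less RNA per cell cannot be told apart.

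The 9 genes lie on 9 different chromosomes and were expressed at very different levels. *Klf13* was the highest, with 23.0 ± 8.49 FPKM (mean ± SD over leukemias, n = 9), followed by *Klf10* with 13.5 ± 2.55 FPKM and *Klf6* with 9.65 ± 5.50 FPKM. *Klf11* had 4.47 ± 1.40 FPKM, *Klf7* 4.07 ± 2.32 FPKM, *Klf2* 2.98 ± 2.80 FPKM and *Klf3* 1.81 ± 1.41 FPKM. *Klf4* averaged 0.531 ± 0.726 FPKM and *Klf12* 0.0093 FPKM, both under the mean of 1 FPKM that a gene needed to be tested, which left 7 of the 9 genes in the tests. *Klf6*, *Klf10* and *Klf13* together made up 65.5% of the summed FPKM of the 9 genes and *Klf9* in 2M and 81.9% in 78A, and the other leukemias lay between.

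**Figure D1:**
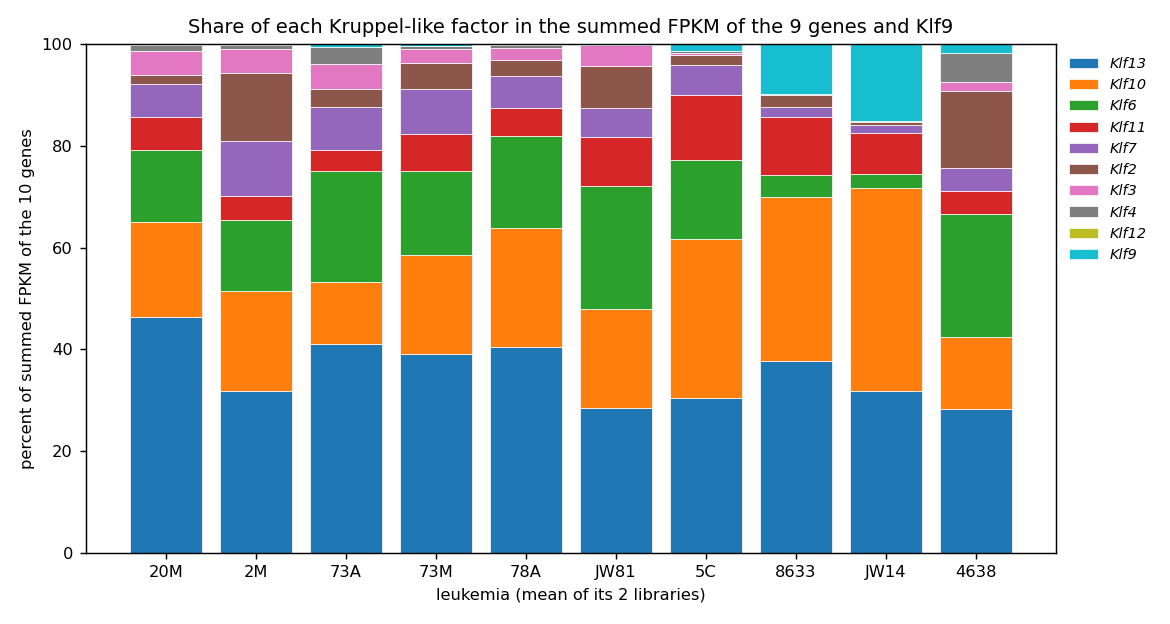
Each bar splits the summed FPKM of the 9 genes and *Klf9* (vertical axis, percent) for 1 leukemia, as the mean of its 2 libraries. *Klf13*, *Klf10* and *Klf6* fill most of every bar, from 65.5% in 2M to 81.9% in 78A, and *Klf9* takes a visible share only in 8633 (9.79%) and JW14 (15.1%), with at most 1.71% elsewhere.

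The same fit that compared DEX with VEH columns also tested the differences among the 9 leukemias. All 7 tested members differed among leukemias at an adjusted p under 0.05, but so did 82.5% of all 11339 genes tested, so the count is close to what genes in general showed. The edgeR Benjamini-Hochberg adjusted p was 3.2e-07 for *Klf6*, 7.9e-07 for *Klf3*, 9.7e-07 for *Klf7*, 1.73e-05 for *Klf2*, 0.000368 for *Klf13*, 0.0128 for *Klf10* and 0.047 for *Klf11*. *Klf11* was thus the closest to the threshold of 0.05, and its call was lost without 2M, 5C, 73A, JW14 or JW81 (adjusted p = 0.0642 to 0.128) and with the ribosomal RNA group in the model (0.0747). Without 73A the adjusted p of *Klf10* was 0.357, and 5 of 7 members were called.

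**Figure D2:**
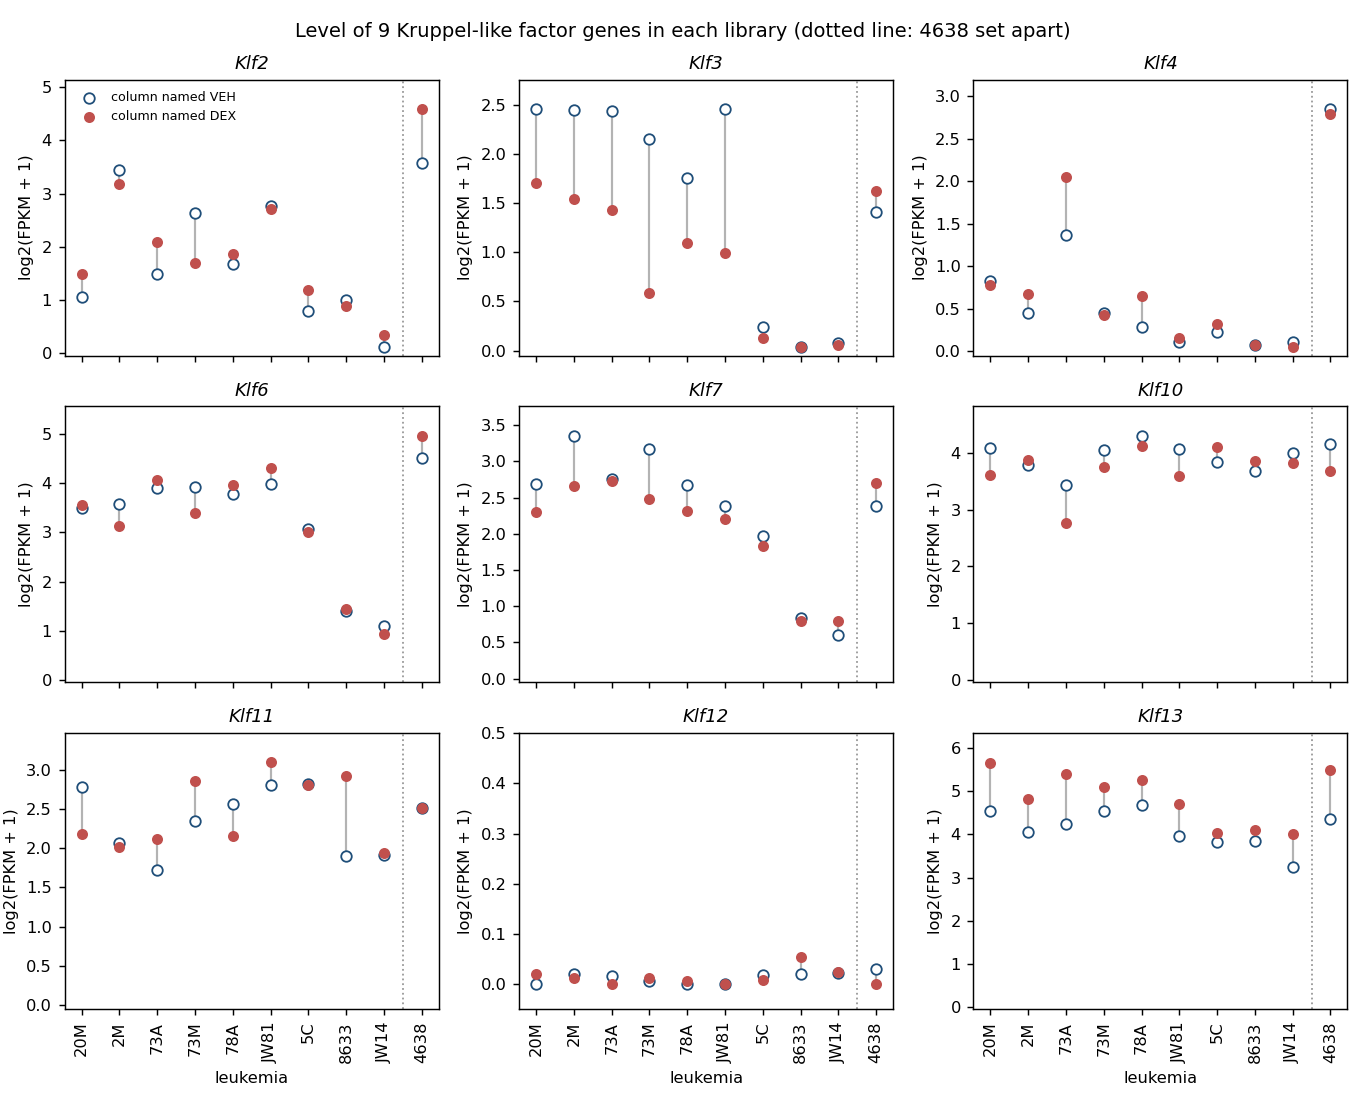
Each panel shows 1 gene, with leukemias on the horizontal axis and log2(FPKM + 1) on the vertical axis; open circles are VEH libraries, filled circles DEX libraries, and a grey line joins the pair of a leukemia. Vertical scales differ between panels, the pair means of *Klf2*, *Klf3*, *Klf4*, *Klf6* and *Klf7* are lowest in 8633 and JW14, *Klf10* stays within a narrow band apart from 73A, and *Klf13* lies higher in the DEX library of each of the 9 leukemias.

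Among the activators, *Klf2* spanned a 51.4-fold range between leukemias, or 9.77-fold without JW14, whose level rests on few counts. It was highest in 2M, with 9.89 FPKM in the VEH and 8.07 FPKM in the DEX library, and next in JW81, with 5.78 and 5.56 FPKM. 73M had 5.17 FPKM in the VEH library and 2.25 FPKM in the DEX library. In its VEH library 73M thus came close to JW81, and in its DEX library to the leukemias of the middle. The middle of the order was held by 73A (1.81 and 3.24 FPKM), 78A (2.19 and 2.61 FPKM) and 20M (1.09 and 1.81 FPKM). In 5C *Klf2* had 0.718 and 1.27 FPKM and in 8633 0.985 and 0.854 FPKM, so that the ranges of these overlapped. JW14 was lowest, with 0.086 FPKM from 6 counts and 0.263 FPKM from 4 counts. Of the 8 pairs of neighbours in the order of means, 4 overlapped in the range of their libraries, while 2M, JW81, 78A and 8633 each stood clear of the leukemia below.

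*Klf6*, an early-response factor and a known tumour suppressor in epithelia, split the leukemias into a high and a low set. In 20M, 2M, 73A, 73M, 78A and JW81 it ranged from 7.74 FPKM in the DEX library of 2M to 18.8 FPKM in the DEX library of JW81. 5C followed with 7.41 and 7.08 FPKM. The low set was 8633, with 1.66 and 1.71 FPKM, and JW14, with 1.14 and 0.914 FPKM, and each of these stood apart from its neighbour above. *Klf7*, first described as a ubiquitous family member and needed in developing neurons, was low in the same leukemias. It was highest in 2M (9.22 and 5.32 FPKM) and 73M (8.04 and 4.58 FPKM) and lowest in 8633 (0.787 and 0.733 FPKM) and JW14 (0.515 and 0.731 FPKM). Pearson's r between the levels of *Klf6* and *Klf7*, as log2(FPKM + 1) over the 9 leukemias, was 0.91, and this and the other correlations here describe 9 points whose libraries enter both genes and carry no p.

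*Klf4* was low outside 73A. In 73A it had 1.59 FPKM in the VEH and 3.15 FPKM in the DEX library, against 0.776 and 0.715 FPKM in 20M, the next leukemia. The remaining leukemias lay between 0.0399 FPKM (1 count, DEX library of JW14) and 0.594 FPKM (DEX library of 2M). The summed levels of the marker lists of other marrow cells were also highest in 73A among the 9 leukemias for the 11 myeloid genes (448 FPKM, against 11.9 to 189 FPKM in the others) and the 9 neutrophil genes (3486 FPKM, against 33.3 to 1526 FPKM). All genes of both lists were detected in 73A, and elsewhere *Elane* was at 0 in both JW14 libraries, *Cd14* in the DEX library of JW14, *Fcgr1* in the VEH library of 2M and *Ly6g* in 3 libraries. The summed macrophage, erythroid and B lineage levels were instead highest in 73M, at 28.9, 435 and 17.7 FPKM. In 73A they were 25.9, 131 and 6.18 FPKM, and *Klf4* averaged 0.359 FPKM in 73M. The summed neutrophil level ranged from 45.0 to 4403 FPKM in the VEH libraries and from 21.6 to 2569 FPKM in the DEX libraries, and the part of such cells in the *Klf4* level was not tested.

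The CtBP-binding repressor *Klf3* fell into 2 levels. In the VEH libraries it had 4.48 FPKM in 20M, 4.43 in 2M, 4.42 in 73A, 4.49 in JW81, 3.44 in 73M and 2.37 in 78A. In 5C it had 0.181 FPKM, in JW14 0.0542 FPKM and in 8633 0.024 FPKM, from 23, 23 and 8 counts. The DEX libraries had 2.26 FPKM in 20M, 1.90 in 2M, 1.70 in 73A, 1.13 in 78A, 0.986 in JW81, 0.502 in 73M, 0.0935 in 5C, 0.0432 in JW14 and 0.0273 in 8633. The 2 sets of leukemias did not overlap in either kind of library, and the range between 20M and 8633 was 131-fold, or 69.2-fold without 8633, whose level rests on 8 and 7 counts. *Klf12*, the other CtBP-binding member, was near the limit of detection, with 0 to 6 counts per library, and reached the floor of 3 counts in 4 of 18 libraries.

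Of the 7 tested members, the SIN3-binding *Klf10*, *Klf11* and *Klf13* had the smallest ranges across leukemias. *Klf9*, of the same SIN3-binding group but left out of the count, ranged 78.4-fold, its lowest level in JW81 resting on 5 and 11 counts. *Klf10* ranged 2.25-fold (1.39-fold without 73A), from 7.85 FPKM in 73A (9.88 and 5.82 FPKM) to 17.6 FPKM in 78A (18.8 and 16.5 FPKM). The other 7 leukemias lay between 11.1 and 16.3 FPKM in every library, and 6 of the 8 neighbouring pairs overlapped. In 8633 (11.8 and 13.6 FPKM) and JW14 (15.0 and 13.1 FPKM), where *Klf6* and *Klf7* were lowest, *Klf10* was within that band. *Klf10* lies on chromosome 15, and the median deviation from the mean over leukemias of the 419 genes tested there was -0.17 in 73A, where that of *Klf10* was -0.71 (both log2). The medians were lower in JW81 (-0.28), 20M (-0.24) and 5C (-0.21), where *Klf10* deviated by 0.01, 0.03 and 0.16. They were highest in 78A (0.24), JW14 (0.22) and 8633 (0.22), where *Klf10* deviated by 0.40, 0.09 and -0.05. The part of chromosome 15 in the *Klf10* level was not tested. *Klf11* ranged 2.42-fold, from 2.80 FPKM in JW14 to 6.77 FPKM in JW81, and 7 of the 8 neighbouring pairs overlapped. *Klf13* ranged 3.06-fold, from 11.8 FPKM in JW14 to 36.1 FPKM in 20M, and all 8 neighbouring pairs overlapped.

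Compared by leukemia, 8633 and JW14 were the 2 lowest for 5 members, *Klf2*, *Klf3*, *Klf4*, *Klf6* and *Klf7*. For the 3 SIN3-binding members they were not the 2 lowest, although JW14 was lowest for *Klf11* and *Klf13*. *Klf9*, the relative left out of the count, was highest in the same 2 leukemias, with 2.54 and 9.27 FPKM in JW14 and 2.97 and 4.89 FPKM in 8633 against 0.0393 to 0.813 FPKM in the libraries of the other 7 leukemias tested, and its r was -0.97 with *Klf6* and -0.94 with *Klf7* (n = 9). Among members, r was 0.88 between *Klf3* and *Klf7*, 0.83 between *Klf3* and *Klf13* and 0.82 between *Klf3* and *Klf6*. *Klf13* also had an r of 0.80 with *Klf7* and 0.78 with *Klf6*. *Klf10* had an r of -0.76 with *Klf4* and between -0.28 and 0.42 with the other members tested. The summed T lineage level was 629 FPKM in 8633 and 635 FPKM in JW14. Of the 9 leukemias only 5C was lower, at 537 FPKM, and the others had 713 to 1236 FPKM. The summed myeloid level was lowest in 8633 and JW14, at 38.5 and 11.9 FPKM. The part of the myeloid cells in the 5 low genes was not tested.

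For each member, the 3 genes whose level across the 9 leukemias was most like its own were taken by Pearson's r among 2931 other genes that averaged 1 FPKM or more with an SD of 0.5 or more on the log2 scale. The closest were those of *Klf3*, with *Zcchc2* (r = 0.99), *Zfp658* (0.99) and *Edem1* (0.98), the last a gene of endoplasmic reticulum-associated degradation. *Edem1* averaged 102 FPKM and *Zcchc2* 19.2 FPKM, so both were far more abundant than *Klf3* itself. *Klf6* was followed by *Gsr*, which encodes glutathione reductase (0.98), the leukocyte tetraspanin *Cd53* (0.97) and *Serac1* (0.97). *Klf7* was followed by *Abhd15*, *Ssh2* and *Dennd1b*, each with an r of 0.97. *Klf13* was followed by the platelet chemokine gene *Ppbp* (0.98), *Gm15747* (0.97) and the cathepsin gene *Ctso* (0.97). *Klf2* was followed by *Fam183b* (0.95), the protease gene *Lgmn* (0.92) and *Arid5a* (0.92). *Klf4*, tested for likeness although under 1 FPKM, was followed by *Map3k20* (0.96), the tyrosine kinase gene *Fes* (0.95) and the neutrophil collagenase gene *Mmp8* (0.95), which is also on the neutrophil list. The even genes *Klf10* and *Klf11* had SDs of 0.30 and 0.37, below the 0.5 asked of the genes compared, so genes as even as these could not be found. Their highest r was 0.82 for *Klf10* (*Gtf2ird1*, then *Gm10171* at 0.79 and *Ttc38* at 0.75) and 0.83 for *Klf11* (*Gm24924*, then *Gpt2* at 0.82 and *Gm9967* at 0.81). For *Klf12*, with almost no counts, none was taken.

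The second comparison set the DEX against the VEH library within each leukemia. *Klf13* rose and *Klf3* fell, and the other 5 tested members did not pass the test. These 2 of 7 stand against 13.0% of all genes tested that differed between the columns (1475 of 11339), of which 6.22% were higher and 6.79% lower in the DEX columns. The median log2 fold change of the 7 members was -0.0035, beside 0.0039 for all genes tested.

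*Klf13* was higher in the DEX library of 9 of 9 leukemias. The VEH libraries had 22.4 FPKM in 20M, 15.6 in 2M, 13.3 in 5C, 18.0 in 73A, 22.2 in 73M, 24.6 in 78A, 13.5 in 8633, 8.44 in JW14 and 14.6 in JW81. The DEX libraries had 49.9 FPKM in 20M, 27.3 in 2M, 15.5 in 5C, 41.1 in 73A, 33.1 in 73M, 37.2 in 78A, 16.1 in 8633, 15.2 in JW14 and 25.3 in JW81. The 2 groups overlapped, since the DEX libraries of 5C, 8633 and JW14 lay under the VEH libraries of 20M, 73A, 73M and 78A, but within a leukemia the order was the same each time. The ratio of DEX to VEH was lowest in 5C (1.17) and 8633 (1.19) and highest in 20M (2.23) and 73A (2.28). edgeR gave a log2 fold change of 0.77 (SE 0.10, Benjamini-Hochberg adjusted p = 0.00176), which is 1.70-fold, and *Klf13* was number 42 of the 11339 genes by p.

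*Klf13* also took a larger part of the family's RNA in the DEX library of 8 of 9 leukemias. Its share of the summed FPKM of the 9 genes and *Klf9* went from 33.7% to 59.1% in 20M and from 31.1% to 51.2% in 73A. In 5C it was 29.8% and 31.1%. 8633 was the exception, with 39.2% in the VEH and 36.2% in the DEX library. The log2 fold change of *Klf13* was 0.75 (adjusted p = 0.0349) in the 4 leukemias without a library of high ribosomal RNA, 0.77 (adjusted p = 0.0829) in the 5 with such a library, and 0.68 (adjusted p = 0.00718) with the ribosomal RNA group in the edgeR model. The genes *E030018B13Rik* and *Gm27252* lie on the opposite strand within the span of *Klf13*, and the kit and counting are not stated to use strand. Their counts were at most 2.11% and 4.48% of those of *Klf13* in a library. *Gm27252*, singled out after its values were seen, was itself higher in FPKM in the DEX library of 9 of 9 leukemias (log2 fold change 2.10, SE 0.22, adjusted p = 0.000745).

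*Klf3* moved the other way in 8 of 9 leukemias, by the per-library levels given above. The ratio of DEX to VEH was 0.505 in 20M, 0.475 in 78A, 0.43 and 0.384 in 2M and 73A, 0.219 in JW81 and 0.146 in 73M, the 6 leukemias in which the gene was well expressed. Among these 6, each DEX library lay below each of the 6 VEH libraries. In the 3 leukemias with little *Klf3* the ratios were 0.517 in 5C, 0.798 in JW14 and 1.14 in 8633, from 23 and 30, 23 and 4, and 8 and 7 counts. edgeR gave a log2 fold change of -1.40 (SE 0.20, Benjamini-Hochberg adjusted p = 0.00268), which is 2.64-fold lower, and *Klf3* was number 71 by p. It was -1.14 (adjusted p = 0.0169) in the 4 leukemias without a library of high ribosomal RNA, -1.67 (adjusted p = 0.0929) in the 5 with such a library, and -1.19 (adjusted p = 0.0182) with that group in the model. Without 73M, whose VEH library was the deepest, it was -1.22 (adjusted p = 0.00328). *Gm20033* overlaps *Klf3* on the other strand, with at most 14.3% of its counts in a library.

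**Figure D3:**
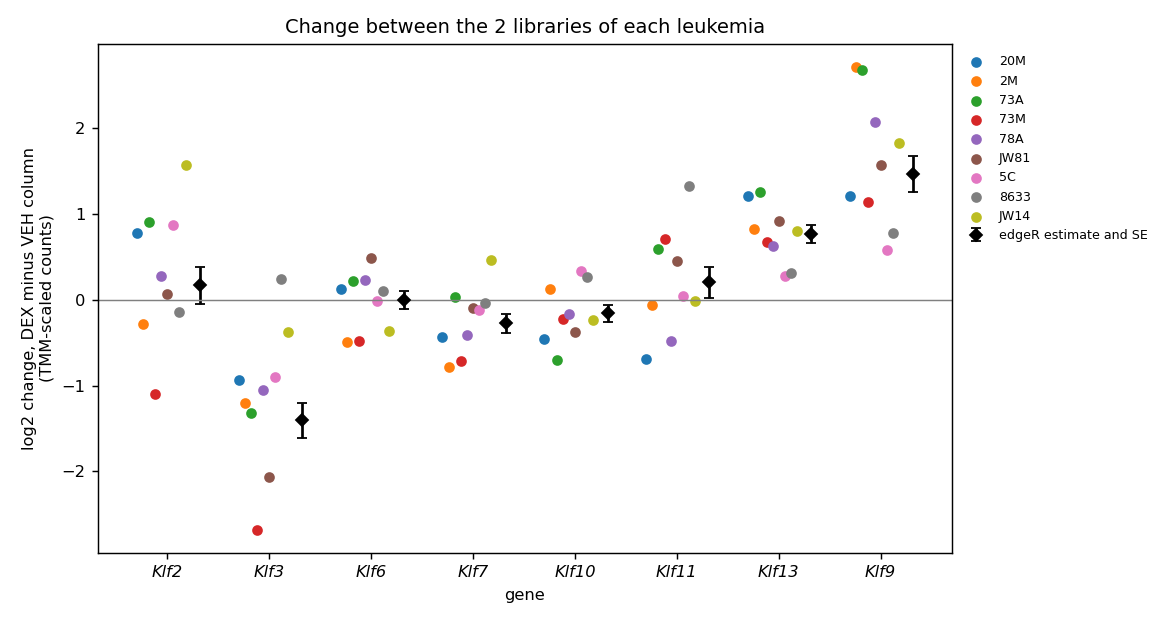
Points are the log2 change from the VEH to the DEX library of each leukemia (vertical axis, TMM-scaled counts), coloured by leukemia, for the 7 tested members and *Klf9*; black diamonds are the edgeR estimates with their SE. All 9 points of *Klf13* and of *Klf9* lie above 0, 8 of 9 points of *Klf3* lie below it, and the points of the other genes lie on both sides.

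Marker lists of marrow cell types were summed in each library beside these differences. The summed neutrophil level was higher in the DEX library of 2 of 9 leukemias (median 1183 FPKM in the VEH and 899 FPKM in the DEX libraries), as was the summed myeloid level (133 and 84.1 FPKM) and the summed T lineage level (879 and 804 FPKM). The 7 endothelial genes were higher in 1 of 9, with summed levels of 22.1 to 27.3 FPKM in the VEH and 16.2 to 25.6 FPKM in the DEX libraries. The summed macrophage and B lineage levels were higher in the DEX library of 4 of 9 leukemias, the stromal of 5 and the erythroid of 6. In 73M and JW81, the leukemias with the lowest *Klf3* ratios, the summed myeloid level was 250 and 133 FPKM in the VEH and 69.0 and 33.6 FPKM in the DEX library, and the neutrophil level 2226 and 1842 against 826 and 759 FPKM. In 73M the erythroid level was also 767 against 103 FPKM and the B lineage level 29.8 against 5.57 FPKM. In 78A, with a *Klf3* ratio of 0.475, the myeloid level was 114 against 196 FPKM and the neutrophil level 1108 against 1524 FPKM. In 2M, with a *Klf3* ratio of 0.43, the myeloid level was 159 against 168 FPKM and the neutrophil level 1111 against 1034 FPKM. The part of these cells in the *Klf13*, *Klf3* and *Klf2* differences was not tested.

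The upstream sequences of *Klf13* and *Klf3* are shown because these are the 2 members that differed between the columns in opposite directions. They come from the RefSeq promoter table (GRCm38.p6), cut to the bases before both the RefSeq and the GENCODE start and written 5′ to 3′ on the strand of the gene. Capitals mark GGGCGG (the GC box), CACCC and AGAACA (a core of glucocorticoid receptor sites) on either strand, and a GC box and a CACCC match can share bases.
*Klf13*, chr7:63938916-63939165, minus strand: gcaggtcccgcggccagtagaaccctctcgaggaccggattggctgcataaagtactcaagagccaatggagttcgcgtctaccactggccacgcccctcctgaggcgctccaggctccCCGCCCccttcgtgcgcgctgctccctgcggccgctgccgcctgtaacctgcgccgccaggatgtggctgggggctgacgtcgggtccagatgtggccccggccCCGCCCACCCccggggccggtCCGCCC
*Klf3*, chr5:64803271-64803387, plus strand: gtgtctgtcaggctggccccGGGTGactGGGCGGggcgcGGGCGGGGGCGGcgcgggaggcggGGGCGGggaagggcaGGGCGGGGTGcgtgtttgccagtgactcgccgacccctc
The *Klf13* run holds 3 matches to GGGCGG and 1 to CACCC, and the shorter *Klf3* run 5 and 2. Both are rich in G and C, at 71.6% and 79.5%, beside a median of 52.4% over all 32851 promoter windows. Of the 8 members with an entry (all but *Klf10*), 7 held GGGCGG in the 250 bases upstream of the RefSeq start, against 32.7% of all windows, and 5 held CACCC, against 52.0%. AGAACA was in none of the 8, and is in 16.1% of all windows. CCAAT was in 3 of the 8 (33.8% of all windows), CACGTG, an E-box, in 3 (6.02%), and GTAAACA, a FOXO motif, in none (3.17%) but once in the *Klf9* window. These matches describe the letters in the windows.

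The 5 other tested members did not pass the test, and their values were as follows. *Klf7* was lower in the DEX library of 8 of 9 leukemias by FPKM and of 7 by TMM-scaled counts, with a median of 5.37 FPKM (0.515 to 9.22) in the VEH and 3.92 FPKM (0.731 to 5.60) in the DEX libraries. The groups overlapped, and edgeR gave -0.27 (SE 0.11, adjusted p = 0.112). *Klf7* alone of these 5 had an unadjusted edgeR p under 0.05 (0.0273). With 1 leukemia left out its edgeR adjusted p was 0.0535 to 0.25. *Klf10* had a median of 15.0 FPKM (9.88 to 18.8) in the VEH and 13.1 FPKM (5.82 to 16.5) in the DEX libraries, with -0.16 (SE 0.10, adjusted p = 0.303) and a lower DEX library in 6 of 9. *Klf6* had medians of 11.0 FPKM (1.14 to 14.7) and 9.47 FPKM (0.914 to 18.8), and its estimate was near 0 at -0.0035 (SE 0.10, adjusted p = 0.985). Its changes by leukemia lay between -0.49 and 0.48, with 5 leukemias higher and 4 lower in the DEX library.

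*Klf2* differed between leukemias in the direction of its change. Its ratio of DEX to VEH was 0.435 in 73M and 0.816 in 2M but 1.66 in 20M, 1.77 in 5C and 1.79 in 73A, and the ratio of 3.06 in JW14 rests on 6 and 4 counts. The edgeR estimate was 0.17 (SE 0.21, adjusted p = 0.613). *Klf11* likewise ranged from 0.601 in 20M and 0.705 in 78A to 1.53 in 73M and 2.41 in 8633, with an estimate of 0.21 (SE 0.18, adjusted p = 0.452). Whether these changes differ between leukemias beyond library error cannot be tested with 1 library of each kind. *Klf4* had 0.51 (SE 0.21, adjusted p = 0.149) under a filter at 0.1 FPKM and 0.49 (SE 0.22, adjusted p = 0.246) without a filter, and was higher in FPKM in the DEX library of 6 of 9, and *Klf12*, tested only without a filter, had 0.58 (SE 0.81, adjusted p = 0.804). For *Klf12* a difference was not detectable at this depth.

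*Klf9* is given for comparison, since it belongs to the same SIN3-binding group as *Klf13*. It was higher in the DEX library of 9 of 9 leukemias, with 1.47 (SE 0.21, adjusted p = 0.00268), at a VEH median of 0.137 FPKM and a DEX median of 0.451 FPKM. In the 5 leukemias with a library of high ribosomal RNA it had 1.26 (adjusted p = 0.0882).

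Of the 72 genes in the lists of related factors and pathways, 51 were tested and 7 passed, 2 higher and 5 lower in the DEX columns. With the ribosomal RNA group in the model the 2 that were higher, *Klf9* and *Dusp1*, still passed (adjusted p = 0.0139 and 0.0186), and the 5 that were lower did not, although their log2 fold changes were of similar size. They were -0.71 (adjusted p = 0.0831) for *Klf16*, -0.19 (0.116) for *Mef2a*, -0.34 (0.149) for *Sap30*, -0.20 (0.0555) for *Smad2* and -0.33 (0.0653) for *Ier2*. Among the other KLF and SP factors, 6 of 17 were tested, *Klf9* rose and the SIN3-binding *Klf16* fell (-0.75, SE 0.19, adjusted p = 0.0249, lower in 7 of 9). The GC-box factors *Sp1*, *Sp3* and *Sp4*, at 31.0, 53.6 and 14.1 FPKM, had changes of -0.09, -0.05 and 0.00064 with adjusted p of 0.314, 0.535 and 0.996. *Sp3* was thus more abundant per length than *Klf13*. The median log2 fold change of this list was -0.02.

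None of the 6 trafficking genes linked to KLF2 passed the test at the edgeR adjusted p, with a median of -0.36, while 2 had an unadjusted p under 0.05 and DESeq2 called 2. *Ccr7*, a lymph node homing receptor gene, had -0.79 (adjusted p = 0.0854) and was lower in 8 of 9 leukemias, and *S1pr1* had -0.38 (adjusted p = 0.263). *Klf2* itself had the opposite sign at 0.17 and did not pass either. Of the 6 tested genes of the ERK5, MEF2 and FOXO regulators that act upstream of *Klf2* and *Klf4*, *Mef2a* fell by 0.19 on the log2 scale (adjusted p = 0.0434, lower in 9 of 9), while *Mapk7*, which encodes ERK5, had -0.11 (adjusted p = 0.308) and *Foxo1* -0.07 (adjusted p = 0.702). None of the 5 tested quiescence and CDK inhibitor genes passed in edgeR or DESeq2, with a median of -0.07, and 1, *Btg1*, had an unadjusted p under 0.05.

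Among the partners of the repressor members, 10 CtBP and SIN3 corepressor genes were tested and *Sap30*, a subunit of the SIN3 complex, fell by 0.38 (adjusted p = 0.0458, lower in 9 of 9), while 6 had an unadjusted p under 0.05 and DESeq2 called 3. *Sin3a* had -0.19 (adjusted p = 0.0593) and *Ctbp1* 0.16 (adjusted p = 0.113). Of 8 tested TGF-beta pathway genes, the signal transducer *Smad2* fell by 0.24 (adjusted p = 0.0125, lower in 9 of 9), and the list had a median of -0.14, with 3 at an unadjusted p under 0.05 and 3 called by DESeq2. Of 10 tested immediate early genes, *Dusp1*, a phosphatase that inactivates MAP kinases, rose by 0.96 (SE 0.15, adjusted p = 0.00414, higher in 9 of 9) and *Ier2* fell by 0.29 (adjusted p = 0.0408, lower in 8 of 9), with 3 at an unadjusted p under 0.05 and 3 called by DESeq2. The summed level of the 15 immediate early genes was 45.5 to 109 FPKM over the 9 leukemias. The medians of the 7 lists lay between -0.36 and -0.02, beside 0.0039 for all genes, and 7 of 51 is close to the 13.0% of all genes that passed.

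**Figure D4:**
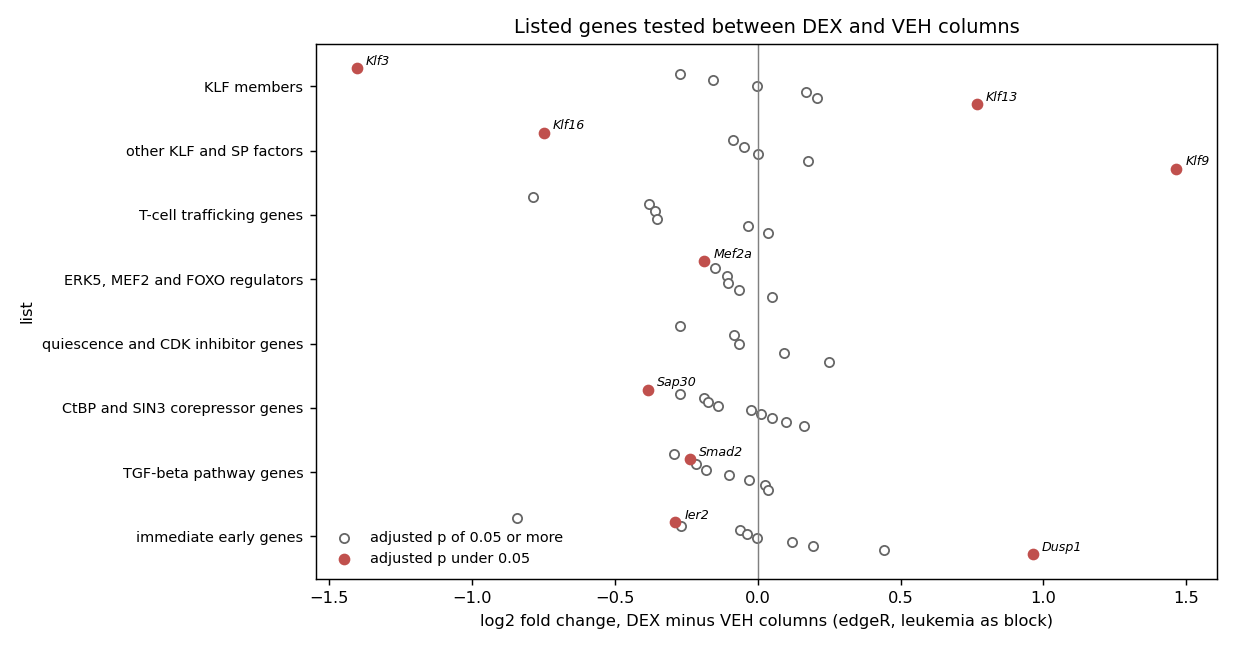
Each point is 1 tested gene, placed by its edgeR log2 fold change between DEX and VEH columns (horizontal axis) in the row of its list; filled points had an adjusted p under 0.05 and carry the gene's name. *Klf3* is the lowest and *Klf9* the highest of all listed genes, with *Dusp1* and *Klf13* next above 0, and most other points lie within 0.5 of 0.

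The libraries of 4638 entered only 1 alternative fit, in which *Klf13* had 0.81 (edgeR adjusted p = 0.000741) and *Klf3* -1.19 (adjusted p = 0.0103) over all 10 leukemias. *Klf2* had 11.0 FPKM in the VEH and 23.1 FPKM in the DEX library, *Klf4* 6.23 and 5.91 FPKM and *Klf6* 21.7 and 30.2 FPKM, each above all 18 other libraries in both. *Klf13* had 19.6 and 44.3 FPKM, a ratio of 2.26 that is close to those of 20M and 73A. *Klf3* had 1.65 and 2.08 FPKM, higher in the DEX library by a ratio of 1.26, and *Klf9* had 0.476 and 3.76 FPKM. The summed T lineage level of 4638 was 311 FPKM, under the other 9 leukemias, and its summed myeloid level of 1167 FPKM and neutrophil level of 6176 FPKM were above them. The part of these cells in its *Klf2*, *Klf4* and *Klf6* levels was not tested.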

How the data were processed

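RNA-seq of leukemic bone marrow was analysed in 18 libraries of 9 leukemias, and 4638 by its values. The authors made TruSeq libraries from poly(A) RNA for paired-end sequencing, mapped the reads to mm10 with Bowtie 2 and counted with RSEM, so the deposited values are expected counts per gene, although the table is named for FPKM. The RSEM version and annotation are not given in the sources used here. All 20 columns were matched to a leukemia, 17 of them to a sample title and 3, the DEX columns of 2M, 73A and 4638, to the leukemia only. FPKM were calculated here with merged exon lengths of GENCODE M21 (GRCm38), which covered 96.6% of genes.

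After rounding of the expected counts, the 11339 genes that averaged 1 FPKM or more were fitted in edgeR 4.0.16 (R 4.3.3) with TMM normalization and the quasi-likelihood test, with leukemia as a block and the DEX or VEH column as the effect tested; leukemias were tested together in the same fit. Standard errors were derived from the F statistic, and p-values were adjusted by Benjamini-Hochberg over all genes at 0.05. The 2 libraries of a leukemia come from the same leukemia, which is the source of the pairing. DESeq2 1.42.0 was an alternative, with others in scaling, filter, block and libraries, and the test was checked on simulated data. Levels were log2(FPKM + 1), a scale that understates differences of low genes. A floor of 3 counts corresponded to 0.0149 to 0.365 FPKM over 1 kb of exon, and it covers counting error only.

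Members and lists were chosen with earlier results of these data known. Genes named were all members, *Klf9*, from each list up to 4 called genes of largest change, and the 3 genes most like each member; other listed genes were named after their values were seen. One listed erythroid marker was not matched. The values of 1 listed gene and the genotypes of the donor mice are not reported here. Tables were made with Python 3.11.15, pandas 2.3.3 and matplotlib 3.10.9.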

Additional observations from a re-analysis of the deposited data

Results flagged for a closer look

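In 73A, *Klf4* stood above the other leukemias at 1.71 and *Klf10* below them at 3.11 (mean log2(FPKM + 1)). The gap to the next leukemia was 0.556 and 0.597 of the range over the 9 leukemias, above Dixon's critical value of 0.493. Chance exceeds this value in about 1 in 20 sets, and 2 of the 18 sets tested, the level and the change of each member, did so.

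The libraries of 4638 enter the comparisons only in 1 alternative and held all members but *Klf12* above the floor of 3 counts in both, with mean levels of 17.0 FPKM for *Klf2*, 1.87 FPKM for *Klf3*, 6.07 FPKM for *Klf4*, 25.9 FPKM for *Klf6*, 4.85 FPKM for *Klf7*, 14.4 FPKM for *Klf10*, 4.71 FPKM for *Klf11* and 31.99 FPKM for *Klf13*.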

How the results depend on the processing

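*Klf13* and *Klf3* kept their direction in all 20 alternatives and passed the threshold in 18. Both were lost without the replicate block, that is, without leukemia in the model (0 of 7 members; *Klf13* 0.82, adjusted p = 0.378, *Klf3* -1.41, adjusted p = 0.918; 8 genes called in all, and 1 member with an unadjusted edgeR p under 0.05), and in the 5 leukemias with a library of high ribosomal RNA (0 members, 2 at an unadjusted p; 15 genes in all). With 1 leukemia left out in turn, 2 members were called each time, with *Klf13* between 0.70 and 0.83 and *Klf3* between -1.49 and -1.22. The estimate of *Klf2* then lay between 0.063 (without 73A) and 0.35 (without 73M). That of *Klf11* lay between 0.066 (without 8633) and 0.31 (without 20M). Of the 7 members called among leukemias, 5 were called without 73A and 6 or 7 in the other alternatives at the filter of 1 FPKM. The count of listed genes called, 7 with the design reported, was 13 with no filter, 14 with DESeq2, 0 without the block (3 at an unadjusted p), 2 with the ribosomal RNA group in the model, 0 in the 5 leukemias with such a library (12 at an unadjusted p), and 3 to 11 with 1 leukemia left out (3 without 20M, 2M, 73A or 73M, 11 without 5C). All genes called numbered 2169 by DESeq2, 465 with the ribosomal RNA group in the model, 475 in the 4 leukemias without such a library, and 676 to 2041 with 1 leukemia left out. The signs of estimates near 0 turned, for *Klf2* to -0.038 and *Klf6* to 0.063 without the block, and for *Klf6* to 0.050 with 4638, 0.00012 with the ribosomal RNA group in the model, 0.011 in the 4 leukemias without such a library, and -0.071 to 0.064 with 1 leukemia left out. The mean over members of the SD of levels across leukemias, 0.61 with a pseudocount of 1, was 0.98 with 0.1. The causes were not tested. Few counts limit *Klf12* (0 to 6 in a library) and *Klf3* in 8633 (8 and 7) and in the DEX library of JW14 (4).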
